A study of Mus musculus with 8 samples.

Results

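The comparison concerns a single RNA-seq library of differentiating mouse neural progenitor cells in which the repressor CIC (capicua) was targeted, here called CIC-D. It was set against each of 2 non-targeted differentiating libraries, named 7 and GFP-D, so 3 of the 8 libraries of the series were used. Differences that held against both controls were described across all genes kept. The cells were brain neural progenitors of FvB/C57BL/6 mice, whose age the labels do not give. The proliferating cells of the series were grown in N2 medium supplemented with EGF and bFGF (20 ng/ml), the growth factors that keep progenitors dividing, and the differentiating cells had been in neurobasal medium with B27 supplement for 5 days. The protocol gives lentiviral hairpins and 3 days of puromycin selection for FUBP1, and it does not spell out the steps for CIC or for the non-targeted cells. All 3 libraries were labelled differentiating and shared that medium, total RNA and the TruSeq preparation. Of the 2 controls, the name GFP-D points to a GFP construct and the name 7 to none. Nothing says whether they shared a construct or came from separate cultures. CIC-D has no replicate. The proliferating libraries CIC (targeted), TRC and GFP (non-targeted), and the differentiating FUBP1-targeted library FUBP1-D, are used below only for side by side values.

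CIC is a transcription factor with an HMG box that binds the octamer TGAATGAA or TCAATGAA and holds genes silent together with its partners Ataxin-1 and Ataxin-1-like and with histone deacetylases. Signalling from growth factor receptors through ERK relieves this repression, and several of the genes so released, the ETV factors and the Sprouty, Spred and dual-specificity phosphatase families, themselves act in or restrain the ERK pathway. In the brain CIC is known for its loss in oligodendroglioma, often beside loss of FUBP1, and for its role in keeping neural progenitors from dividing.

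The unit is FPKM, fragments scaled by transcript length and library size. A gene counted as beyond both controls by more than 1 when log2(FPKM + 1) in CIC-D lay more than 1 unit, a 2-fold change for abundant genes, above or below that in 7 and also that in GFP-D. The smaller of the 2 differences is given as the margin. Absolute depth is unknown, since the table holds no counts. FPKM summed to 448571 in CIC-D, 433488 in 7 and 435046 in GFP-D, and 11143, 11489 and 11345 genes reached 1 FPKM. The controls were no closer to each other than to CIC-D. Their median absolute gap over the 11968 rows was 0.30, against 0.28 between CIC-D and 7 and 0.26 between CIC-D and GFP-D, and the controls differed by more than 1 in 1144 rows (9.56%). In bulk RNA, fewer cells of a type and less RNA per cell cannot be told apart.

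The targeted gene came first. Cic (chr7:26067198-26079167, mm9) stood at 42.0 FPKM in 7, 35.3 in GFP-D and 25.6 in CIC-D, so CIC-D was the lowest of the 3 and held 60.9% and 72.5% of the control levels. The remaining differentiating library, FUBP1-D, had 32.1 FPKM. The difference from the control mean was -0.57 (SE 0.32) on the log2(FPKM + 1) scale and did not pass limma's test (adjusted p = 1.0). In proliferating cells Cic was at 13.3 FPKM in CIC against 39.4 in TRC and 33.8 in GFP, a wider gap than in the differentiating cells. The difference between the gaps was 0.82 (SE 0.46, limma adjusted p = 0.998). Fubp1, at 24.8, 25.4 and 26.9 FPKM in 7, GFP-D and CIC-D, and Kdm1a, the LSD1 demethylase, at 48.8, 50.6 and 50.5, were level.

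Of 8 genes for CIC and its partners, 7 lay below both controls and none above, and none did so by more than 1. Across all rows kept, 34.1% lay below both controls by any margin and 30.8% above. The partner Atxn1, which encodes Ataxin-1, stood at 3.82 FPKM in 7, 3.28 in GFP-D and 1.56 in CIC-D, the widest margin of the group (-0.74). The deacetylase Hdac1 read 28.6, 38.6 and 21.2 FPKM in the same order. Only Ywhaz, a 14-3-3 adaptor, lay between the controls. These counts were a description, as were those of every list below, and each is to be read beside the 34.1% and 30.8% of all rows.

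Promoters of 2 genes of the CIC target list, and of Hsd11b1, which is not on that list, are shown because the octamer is the sequence through which CIC acts. The letters TGAATGAA and TCAATGAA were searched on both strands in the 250 bases before the start of each RefSeq gene (GRCm38.p6). They occurred in 1.70% of 32851 promoters and in 1.09% of the 12372 promoters of genes kept. In the list of 24 CIC targets and ERK feedback genes only 14 matched a promoter entry, and of the 128 genes above both controls by more than 1 only 79 did, so shares over these sets are void. Among the 211 genes below both by more than 1, 169 matched. The octamer was held by 2 of their 213 promoters (0.939%), those of Pde1c and Crispld2. The lines below run 5′ to 3′ in the direction of the gene, with the octamer or its reverse complement in capitals. Spry2 (chr14:105896820-105897069, minus strand) and Spred3 (chr7:29168648-29168897, minus strand) are the CIC list members with a match, at 54 and 10 bases before the start. Hsd11b1 (chr1:193242361-193242610, minus strand) is the gene furthest above both controls, with a match 151 bases before its start. Il17d, Lsamp and Isg15, also above both by more than 1, held a match too. The promoters of Gpnmb, also among the genes furthest above, and of Serpinh1, Ctsz and Mmp14, among those furthest below, held no match. A match is a description of letters, not of binding.
Spry2: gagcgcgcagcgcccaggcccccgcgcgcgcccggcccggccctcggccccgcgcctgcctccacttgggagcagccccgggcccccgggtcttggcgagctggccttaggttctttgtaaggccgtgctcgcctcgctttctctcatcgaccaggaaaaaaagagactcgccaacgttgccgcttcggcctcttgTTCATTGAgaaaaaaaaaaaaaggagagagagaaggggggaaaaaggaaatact
Spred3: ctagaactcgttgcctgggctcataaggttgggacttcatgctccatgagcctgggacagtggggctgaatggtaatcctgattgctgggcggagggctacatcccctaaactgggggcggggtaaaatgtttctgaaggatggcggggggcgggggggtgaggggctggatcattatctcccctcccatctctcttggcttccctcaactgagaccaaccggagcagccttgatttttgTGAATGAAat
Hsd11b1: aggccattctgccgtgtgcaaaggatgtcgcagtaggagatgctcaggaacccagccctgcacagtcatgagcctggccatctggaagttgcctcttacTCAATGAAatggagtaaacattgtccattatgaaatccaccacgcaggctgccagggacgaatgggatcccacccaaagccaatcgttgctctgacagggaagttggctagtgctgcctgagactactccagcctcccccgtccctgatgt

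The list of CIC targets and ERK feedback genes did not stand above the controls as a group. Of 23 members kept, 3 lay above both controls, 9 below both and 11 between them, and none was beyond both by more than 1. The median member lay 0.34 below 7 and 0.13 above GFP-D, beside medians over all rows of -0.02 and -0.01. Spry4, a Sprouty inhibitor of receptor signalling, read 5.34 FPKM in 7, 3.56 in GFP-D and 7.26 in CIC-D. Spred3 read 10.02, 12.7 and 15.6, and the cyclin gene Ccnd2 33.3, 36.6 and 47.5. These were the 3 above both, with margins of 0.38, 0.28 and 0.36. The ETV factors gave no common direction. Etv1 was lowest in CIC-D at 9.76 FPKM against 16.5 and 13.9, while Etv4, at 9.95, lay between 13.6 in 7 and 1.41 in GFP-D, and Etv5, at 87.4, between 114 and 75.8. The phosphatase gene Dusp6 read 16.5, 11.5 and 9.12 FPKM, and Spry2, whose promoter is printed above, 25.9, 21.5 and 16.7. In the proliferating state Etv1 stood at 112 FPKM in CIC against 40.2 and 82.6 in its controls. There 9 of the 23 members lay above both controls and 7 below both, while 31.4% of all rows lay above both and 39.9% below both by any margin.

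Across all genes, 128 of 11968 rows lay more than 1 above both controls (1.07%) and 211 more than 1 below both (1.76%). Their median margins were 1.29 and -1.36. By any margin, 3689 rows were above both, 4076 below both and 4203 between the controls. With a single control in place of both, the counts were 331 above 7, 526 above GFP-D, 476 below 7 and 591 below GFP-D. The margin exceeded the gap between the controls in 101 of the 128 higher rows and in 179 of the 211 lower rows. The rows with the widest margins were mostly lower ones, with 22 lower rows past a margin of 3 and 4 higher ones, and 54 lower and 15 higher rows past 2. Of the lower rows, 107 were under 1 FPKM in CIC-D and 14 were listed at 0. Only 25 lower and 32 higher rows had at least 10 FPKM in all 3 libraries. At the threshold itself, Ppm1e, a protein phosphatase gene, lay just inside with 8.30 FPKM in 7, 7.73 in GFP-D and 3.36 in CIC-D.

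**Figure D1:**
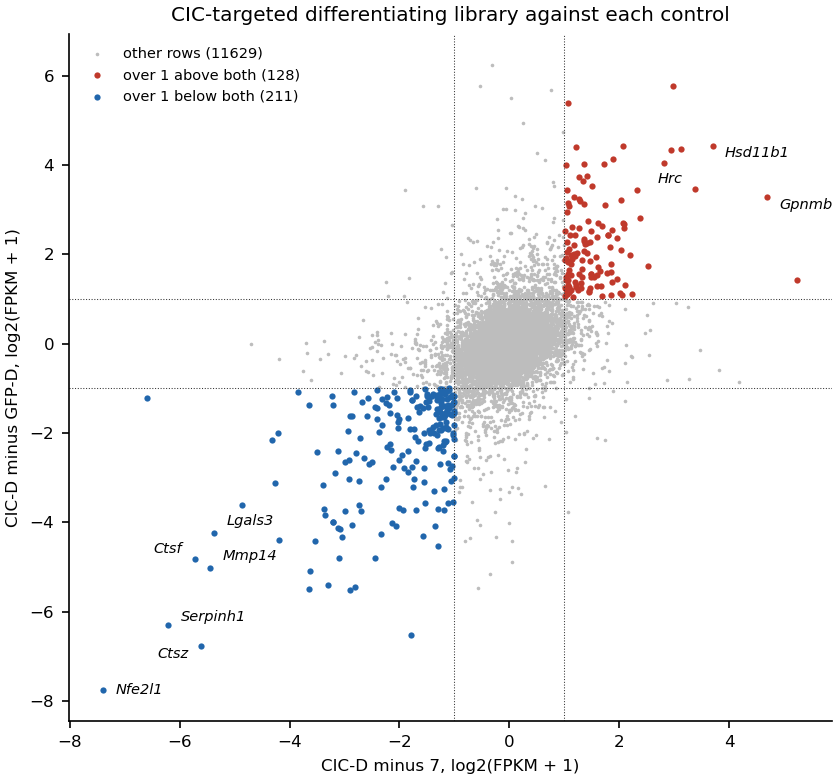
Difference of CIC-D from control 7 (horizontal axis) and from control GFP-D (vertical axis) in log2(FPKM + 1), 1 point per row kept, with dotted lines at 1 and -1. The 128 rows in red and the 211 in blue lie beyond both controls by more than 1, and the blue cloud reaches further from the centre, down to Nfe2l1 and Serpinh1.

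In limma, with the spread taken from the 2 pairs of non-targeted libraries and CIC-D assumed to vary as they do, 2 rows passed an adjusted p of 0.05 (0.0167% of rows), both lower in CIC-D. They were Serpinh1 and Nfe2l1, out of 313 rows at an unadjusted p under 0.05. The p-values reflect only how far these particular libraries differ, part of which may be technical. The calls were not stable to settings: 0 rows passed with a pseudocount of 5, without the filter on low values, without the mean-variance trend, with the differentiating libraries alone, or with any single non-targeted library left out.

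Serpinh1 (chr7:106493885-106501749) encodes HSP47, the chaperone of the endoplasmic reticulum that folds procollagen. It stood at 88.2 FPKM in 7, 93.5 in GFP-D and 0.207 in CIC-D, so the controls lay close together and the targeted library far below them. Its fitted difference was -6.25 (SE 0.32, limma adjusted p = 0.0398). The level was also close to nil in the proliferating CIC library, at 0.172 FPKM against 137 in TRC and 113 in GFP, while FUBP1-D had 157. Nfe2l1 (chr11:96678728-96691282) encodes NRF1, the membrane-anchored factor that raises proteasome genes when proteasomes fail. It read 166 FPKM in 7, 213 in GFP-D and was listed at 0 in CIC-D, with a fitted difference of -7.56 (SE 0.46, limma adjusted p = 0.0498). Unlike Serpinh1 it was not low in proliferating CIC cells, at 179 FPKM against 71.4 and 131. It was the only row at 0 in CIC-D with both controls above 5 FPKM, and a lone 0 in such a table can be a failed estimate. No ratio of FPKM is therefore given for Nfe2l1, and its fitted difference and call rest on that 0.

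Further genes far below both controls included proteases, a galectin and surface receptors. Ctsz (chr2:174252995-174264493), the lysosomal protease cathepsin Z, read 67.5 FPKM in 7, 150 in GFP-D and 0.393 in CIC-D. Mmp14 (chr14:55050441-55060095), a membrane-bound metalloproteinase that cuts matrix and activates proMMP2, read 46.3, 34.5 and 0.0855 FPKM. Ctsf (chr19:4855129-4860912), cathepsin F, read 57.0, 30.1 and 0.0926. In each of these 3 genes CIC-D held under 1% of either control, although none passed limma's test (adjusted p from 0.578 to 0.923). Lgals3 (chr14:47993535-48005842), the galectin of activated glia and macrophages, was at 105, 47.4 and 1.55 FPKM, that is 68.0-fold and 30.6-fold lower than in 7 and GFP-D. Plin3, a coat protein of lipid droplets, read 16.5, 61.6 and 0.399. S1pr3, a receptor for sphingosine 1-phosphate, read 16.1, 46.1 and 0.388. Pdk4, the kinase that switches off pyruvate dehydrogenase, read 30.4, 12.2 and 0.0771 FPKM, and Gpc4, a heparan sulphate proteoglycan that astrocytes release, 10.8, 49.4 and 0.191. In these 4 genes the controls differed from each other by more than 1, yet by less than the margin of CIC-D below the nearer one. Tppp3, a tubulin-binding protein, stood at 33.3, 46.9 and 2.37 FPKM, and Hdgfrp3, a member of the hepatoma-derived growth factor family, at 10.9, 14 and 0.158. The gene listed as 1810013D10Rik read 21.1, 24.4 and 0.214.

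**Figure D2:**
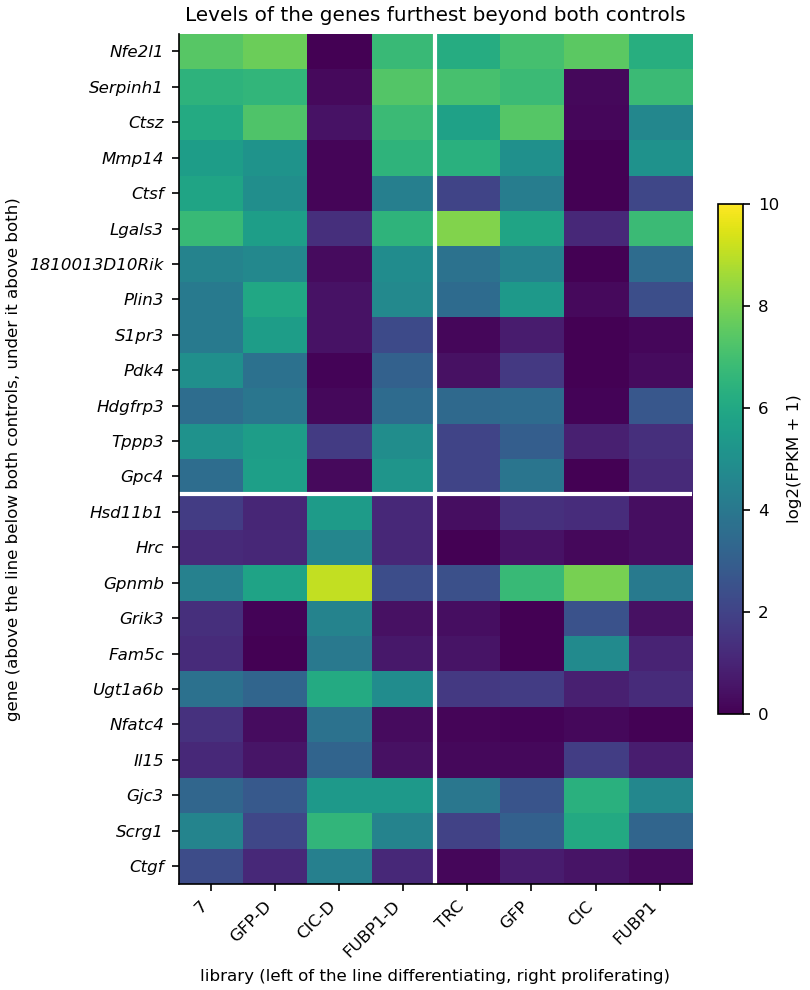
Levels of 24 of the genes furthest beyond both controls, as log2(FPKM + 1) by colour, with libraries in columns (differentiating to the left of the white line) and genes in rows (below both controls above the white line). Members of the protocadherin gamma cluster and Ugt1a6a, which overlaps Ugt1a6b, are among those left out. Serpinh1, Ctsz, Mmp14, Lgals3 and Hdgfrp3 are dark in both CIC columns, whereas Hsd11b1, Hrc and Nfatc4 are bright only in the CIC-D column.

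Among the genes furthest above both controls, Hsd11b1 (chr1:195047835-195090239) led. It encodes 11-beta-hydroxysteroid dehydrogenase type 1, which regenerates active glucocorticoid, and stood at 2.47 FPKM in 7, 1.11 in GFP-D and 43.9 in CIC-D, 17.8-fold and 39.7-fold higher. Hrc (chr7:52590639-52594342), a histidine-rich calcium-binding protein of the sarcoplasmic reticulum, read 1.29, 1.17 and 22.8 FPKM. Both genes lay at or under 2.5 FPKM in the other 7 libraries of the series. Neither passed limma's test (adjusted p = 0.652 and 0.617). Gpnmb (chr6:48986517-49008181), a transmembrane glycoprotein of lysosomes and of phagocytic cells, was the most abundant of the group at 541 FPKM in CIC-D, against 20.0 in 7 and 54.6 in GFP-D. FUBP1-D had 4.08 FPKM of it, so the 3 libraries that were not CIC-targeted spread widely too. Grik3, a kainate receptor subunit, read 1.52, 0.0699 and 20.9, and Fam5c, a neural secreted protein of the BRINP family, 1.38, 0.0162 and 15.7. For both genes GFP-D was near 0 and 7 was not, so only the difference from 7 is read as a size (13.8-fold and 11.4-fold).

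Further genes of this group were Nfatc4, a calcineurin-dependent transcription factor (1.69 FPKM in 7, 0.254 in GFP-D and 12.6 in CIC-D), and Il15, a cytokine for lymphocytes (1.20, 0.464 and 8.41). Scrg1, a secreted protein of glia, read 21.6, 3.37 and 93.5 FPKM, and Ctgf, a matrix-associated target of TGF-beta and YAP signalling, 4.03, 1.22 and 19.6. Gjc3, the gap junction protein connexin 29 of oligodendrocytes, stood at 8.74, 5.86 and 40.3, but FUBP1-D had 41.1, so this gene was as high in the other hairpin library. A pair of glucuronosyltransferase rows, Ugt1a6a (3.53, 1.92 and 18.1) and Ugt1a6b (12.2, 8.69 and 67.5), overlap other genes of the Ugt1a locus (8 each), and how reads were split among them is not given, so their separate values are uncertain.

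Genes with at least 10 FPKM in all 3 libraries do not rest on values near 0. The furthest above was Gpnmb, followed by the protocadherin row Pcdhgb2 (18.8, 17.5 and 59.8 FPKM in 7, GFP-D and CIC-D). Gstm1, a glutathione transferase of the detoxification system, read 929, 537 and 2823 FPKM, 3.04-fold and 5.26-fold higher in CIC-D. After quantile normalization its margin was 0.96 in place of 1.60, under the threshold. The complement gene C4b read 16.8, 12.8 and 52.3. Gpr137b, a lysosomal membrane protein, read 21.8, 22.5 and 65.7, Timp4, an inhibitor of metalloproteinases, 10.9, 10.3 and 32.5, Id1, a BMP-responsive inhibitor of bHLH factors, 17.1, 16.9 and 49.6, and Rabif, a chaperone of Rab proteins, 12.3, 11.6 and 36.3. In C4b, Gpr137b, Timp4, Id1 and Rabif the controls lay within 0.37 of each other and CIC-D was between 2.90-fold and 3.11-fold above 7. Timp4 was higher still in FUBP1-D, at 58.1 FPKM.

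On the lower side of these well measured genes stood Igfbp5, a binding protein that limits IGF signalling, at 55.8, 229 and 12.5 FPKM. Ezr, the ezrin that ties membrane to actin, read 57.0, 77.7 and 18.7, and Ucp2, a mitochondrial carrier, 36.9, 110 and 11.9. Dner, a Notch-related surface protein of neurons, read 48.6, 202 and 16.2 FPKM. Tgm2, tissue transglutaminase, read 62.2, 91.5 and 22.2, and Txnip, the thioredoxin-binding arrestin that responds to glucose, 248, 351 and 91.9. Nudt4, a diphosphoinositol phosphatase, read 281, 238 and 89.9 FPKM. Cpe, carboxypeptidase E, which trims neuropeptides, read 1130, 4286 and 434 FPKM. For Igfbp5, Dner and Cpe the controls themselves differed by 1.92 to 2.03, more than CIC-D differed from 7 in Dner and Cpe.

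Interferon-stimulated genes stood high in CIC-D and in 7, and low in GFP-D. Of 32 members 22 lay above both controls, 10 between them and none below both. Across all rows kept, 30.8% lay above both and 34.1% below both by any margin. Only Isg15, Zbp1 and Dhx58 exceeded both by more than 1. The median member lay 0.27 above 7 and 1.80 above GFP-D, while 7 itself lay 1.50 above GFP-D and exceeded it in all 32 genes, so most of the distance to GFP-D was shared by control 7. Summed over the list, FPKM came to 2309 in CIC-D, 1566 in 7 and 413 in GFP-D. Isg15, the ubiquitin-like protein that interferon induces, read 142 FPKM in 7, 25.1 in GFP-D and 343 in CIC-D. Ifit3, which blocks viral RNA together with its relatives, read 152, 10.3 and 301, and Bst2 (tetherin) 301, 104 and 567. The RNA sensor regulator Dhx58 read 5.00, 2.56 and 11.6 FPKM, and the nucleic acid sensor Zbp1 1.22, 0.496 and 3.69. By contrast Ifit1 read 73.6, 5.39 and 70.4 and Rsad2, or viperin, 40.1, 4.56 and 26.1, below 7. FUBP1-D held 103 FPKM of Isg15. In the proliferating state Isg15 was at 321 FPKM in CIC against 20.1 in TRC and 72.0 in GFP, and 28 of the 32 members lay above both controls there, beside 31.4% of all rows.

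Promoters of 3 of these genes are shown because interferon acts through a repeated GAAA element. A pair of GAAA repeats parted by any 2 bases, searched on both strands in the same 250 bases, occurred in 2.98% of all 32851 promoters and in 2.47% of those of genes kept. Of the 32 list members 23 matched a promoter entry, too few for a share over the list, and 11 genes held the element. In capitals below are its matches in Isg15 (chr4:156200819-156201068, minus strand), Ifit3 (chr19:34583279-34583528, plus strand) and Bst2 (chr8:71537473-71537722, minus strand) in GRCm38.p6, where overlapping matches run together. The Isg15 promoter also held the octamer in reverse, 122 bases before the start.
Isg15: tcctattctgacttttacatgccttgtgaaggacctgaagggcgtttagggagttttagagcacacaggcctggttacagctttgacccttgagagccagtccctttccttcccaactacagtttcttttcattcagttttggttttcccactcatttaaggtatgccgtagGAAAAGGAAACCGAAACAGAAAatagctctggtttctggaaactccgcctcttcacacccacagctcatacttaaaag
Ifit3: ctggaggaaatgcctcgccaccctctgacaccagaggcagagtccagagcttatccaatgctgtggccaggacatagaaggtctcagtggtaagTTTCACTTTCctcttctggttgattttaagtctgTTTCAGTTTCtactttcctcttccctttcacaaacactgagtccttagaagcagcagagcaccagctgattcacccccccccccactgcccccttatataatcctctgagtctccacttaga
Bst2: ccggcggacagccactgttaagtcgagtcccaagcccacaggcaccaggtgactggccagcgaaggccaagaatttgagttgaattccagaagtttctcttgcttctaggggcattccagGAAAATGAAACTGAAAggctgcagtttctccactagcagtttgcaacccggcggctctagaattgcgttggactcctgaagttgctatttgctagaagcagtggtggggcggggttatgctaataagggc

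Genes of MHC class I presentation and the immunoproteasome had the same order of libraries with smaller differences. Of 16 members kept, 12 lay above both controls and none below both, beside 30.8% and 34.1% of all rows. None was beyond both by more than 1, and the medians were 0.18 above 7 and 0.89 above GFP-D. B2m, the light chain of every class I molecule, read 783 FPKM in 7, 657 in GFP-D and 1265 in CIC-D. H2-K1, a class I heavy chain, read 211, 128 and 280, and the peptide editor Tapbp 85.4, 51.1 and 107. The inducible proteasome subunit Psmb8 lay between the controls, at 29.7 FPKM against 62.8 and 29.3. Class I heavy chains share sequence, so their values are uncertain.

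**Figure D3:**
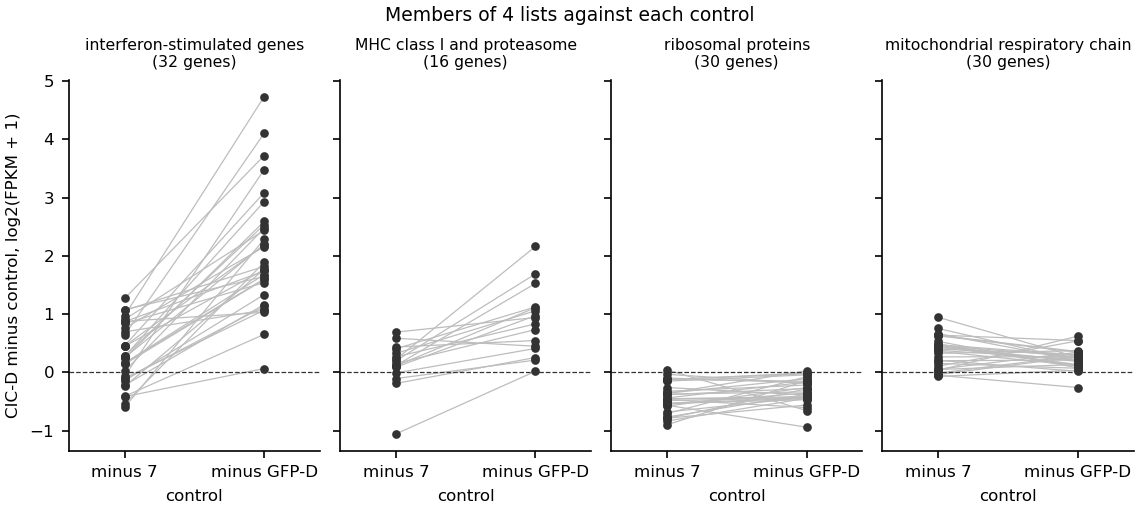
Difference of CIC-D from 7 and from GFP-D in log2(FPKM + 1) for the kept members of 4 gene lists, 1 pair of joined points per gene, with the dashed line at 0. Interferon-stimulated genes lie much further from GFP-D (median 1.80) than from 7 (median 0.27), while ribosomal protein and respiratory chain genes keep similar small differences from both.

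Ribosomal protein genes and genes of the mitochondrial respiratory chain lay on opposite sides of the controls, with no member beyond both by more than 1. Of 30 ribosomal protein genes 28 lay below both controls and none above both, with medians of -0.45 against 7 and -0.31 against GFP-D. The margins of the 28 ran from -0.01 to -0.56. Rpl3 read 627 FPKM in 7, 535 in GFP-D and 363 in CIC-D, and Rps3 240, 312 and 163. The exceptions, Rpl11 (596, 455 and 465) and Rplp2 (495, 804 and 511), lay between the controls. Of 30 respiratory chain genes, 26 lay above both controls and 1, Uqcrc2, below both, with medians of 0.39 and 0.22 and margins up to 0.55. Sdhb, a subunit of succinate dehydrogenase, read 95.2, 102 and 149 FPKM, Cox5b of complex IV 99.2, 120 and 155, and Atp5b of the ATP synthase 602, 689 and 831. Both counts are to be read against the 34.1% and 30.8% of all rows that lay below or above both controls. In the proliferating CIC library, 16 of the ribosomal genes lay below both controls, beside 39.9% of all rows, and 20 of the respiratory chain genes above both, beside 31.4%.

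The stress genes of the ATF4 and unfolded protein response list leaned upward by small amounts, mainly against 7. Of 32 members, 17 lay above both controls and 4 below, beside 30.8% and 34.1% of all rows. None was beyond both by more than 1. The median member lay 0.54 above 7 but 0.10 above GFP-D. The median of 7 minus GFP-D over the list was -0.43. Ddit3, the stress factor CHOP, read 54.7 FPKM in 7, 81.1 in GFP-D and 115 in CIC-D, and Atf4 itself 45.5, 67.8 and 83.9. Slc7a11, the cystine importer, read 10.2, 9.40 and 19.4, the widest margin above in the list (0.86). The disulphide isomerase Pdia4, by contrast, read 102, 130 and 67.9. In proliferating cells Ddit3 and Atf4 stood far higher in CIC, with Ddit3 at 660 FPKM against 9.93 and 42.2 and Atf4 at 465 against 129 and 125. Atf3, a stress-induced repressor, was high in proliferating CIC, at 82.2 FPKM against 0.943 and 2.01, but not in CIC-D, at 4.39 against 5.67 and 5.71. Its difference between the CIC effects in the 2 states was -5.42 (SE 0.60), and with adjustment over all rows it did not pass (limma adjusted p = 0.998).

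**Figure D4:**
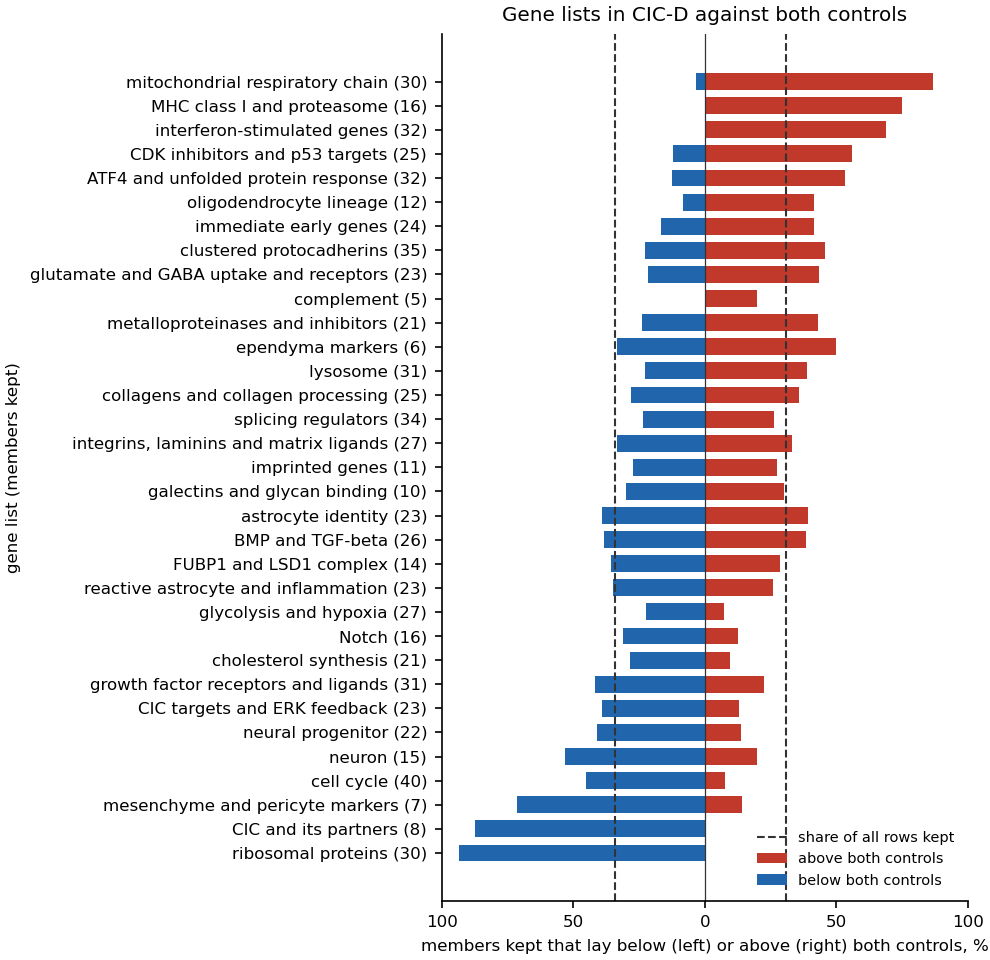
Share of the kept members of each gene list that lay below both controls (blue, to the left) or above both (red, to the right) by any margin, in percent, for lists with at least 5 members kept. The dashed lines mark the shares of all rows kept, 34.1% below and 30.8% above. Respiratory chain, MHC and interferon lists lie furthest to the right and ribosomal proteins furthest to the left.

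Markers of cell identity described what kind of cells the 3 libraries held. Proliferation was low in all of them: Mki67, the proliferation antigen, read 0.331 FPKM in 7, 0.135 in GFP-D and 0.134 in CIC-D, against 43.2 in TRC, 19.1 in GFP and 19.5 in CIC. Of 40 cell cycle genes kept, 3 lay above both controls and 18 below, beside 30.8% and 34.1% of all rows, and none did so by more than 1. The neuronal markers Dcx and Rbfox3 were at or near 0, with Dcx at 0.0117, 0.0105 and 0 FPKM and Rbfox3 at 0, 0.00964 and 0. Other members of the list of 35 neuronal genes were expressed. The list summed to 321 FPKM in 7, 336 in GFP-D and 377 in CIC-D, and 15 members were kept. Astrocyte genes were abundant, with Slc1a3, a glutamate transporter, at 405, 322 and 477 FPKM and Apoe at 1493, 2180 and 3624. The progenitor factor Sox2 was level at 300, 327 and 307.

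Within the astrocyte list the members did not move together. Of 23 kept, 9 lay above both controls and 9 below both, beside 30.8% and 34.1% of all rows. Gfap (chr11:102748650-102758514), the intermediate filament of mature and reactive astrocytes, read 67.9 FPKM in 7, 31.9 in GFP-D and 5.10 in CIC-D, while FUBP1-D had 61.1. Aldh1l1, the folate enzyme used as a pan-astrocyte marker, read 172, 47.3 and 17.6, with 328 in FUBP1-D. In both genes CIC-D was the lowest of the 4 differentiating libraries. Gpr37l1, an astrocyte receptor, went the other way at 10.4, 158 and 427 FPKM, with controls that differed by 3.81. S100b read 0.347, 0.188 and 2.08. Apoe, the carrier of brain lipid, Agt, angiotensinogen (171, 86.2 and 301), and Clu, clusterin (43.8, 29.3 and 78.2), were above both controls by 0.73, 0.82 and 0.82. None of these genes passed limma's test.

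Reactive and inflammatory genes likewise split. Of 23 kept, 6 lay above both controls and 8 below, beside 30.8% and 34.1% of all rows. Cxcl1, a neutrophil chemokine, read 87.5 FPKM in 7, 38.4 in GFP-D and 3.57 in CIC-D. Tnfaip2, a gene induced by TNF, read 7.17, 49.7 and 0.162, and Steap4, an iron reductase of the inflammatory response, 14.2, 61.1 and 3.69. Ccl2, a monocyte chemokine, was the member more than 1 above both, at 143, 97.6 and 360 FPKM. Complement C3, on both the reactive and the complement list, lay between controls that were far apart (58.9, 764 and 434).

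Oligodendrocyte lineage genes lay above both controls in 5 of 12 kept, beside 30.8% of all rows. Among them were the factors Olig1 (197, 303 and 349 FPKM) and Olig2 (88.0, 112 and 130), by 0.21 and 0.22. The defining genes Sox10 and Mag were listed at 0 in all 3 libraries. Neuronal genes lay below both controls in 8 of 15 kept, beside 34.1% of all rows. Scg3, a granin of secretory vesicles, read 22.2, 39.0 and 1.51 FPKM, with 52.7 in FUBP1-D. Stmn2, a tubulin regulator of growing axons, read 1.62 and 1.18 in the controls and was listed at 0 in CIC-D. Gap43, a growth cone protein, read 1.28, 0.273 and 4.13 FPKM, small beside 250 in proliferating CIC. Of 22 progenitor genes kept, 3 lay above both controls and 9 below, beside 30.8% and 34.1% of all rows, and none did so by more than 1.

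Markers of other cell types that a brain culture could hold were mostly low. Of the 16 microglial genes, 3 were kept, 14 were under 1 FPKM in all 3 libraries, and Cx3cr1, Csf1r, Trem2 and Tyrobp were listed at 0. The 16 summed to 74.2 FPKM in 7, 87.0 in GFP-D and 94.1 in CIC-D. Most of each sum came from a single kept gene other than Cd68, so the sums do not describe the list. Of the 3 kept, 2 lay above both controls, among them Cd68 at 5.68, 3.74 and 5.76 FPKM. A single one of the 12 endothelial genes was kept, Flt1, at 2.24 FPKM in 7, 0.699 in GFP-D and 0.354 in CIC-D. Of 7 mesenchymal and pericyte genes kept, 5 lay below both controls, beside 34.1% of all rows, or 3 after quantile normalization. The whole list of 18 genes summed to 9.67 FPKM in CIC-D against 44.1 in 7 and 39.0 in GFP-D. Myl9, a light chain of smooth muscle myosin, read 22.3, 17.4 and 1.93 FPKM and was the largest single part of the sum in the controls. Fbln2, a matrix fibulin, read 11.99, 8.79 and 1.50, and Twist1, a mesenchymal factor, 1.23, 1.83 and 0.0345. The defining genes Dcn and Lum were listed at 0 in all 3, and Col1a2 and Acta2 were under 0.5 FPKM. The part of mesenchymal cells in the low values of Serpinh1 and Mmp14, which such cells also express, was not tested.

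Matrix and collagen genes did not follow Serpinh1. Of 25 collagen and collagen processing genes kept, 9 lay above both controls and 7 below, beside 30.8% and 34.1% of all rows. Col6a1 and Col6a2, chains of collagen VI, read 48.2, 23.2 and 10.5 FPKM and 6.93, 1.35 and 0.117 in 7, GFP-D and CIC-D. Col5a1, a fibrillar collagen chain, was above both controls at 20.5, 30.3 and 52.6 FPKM, and Leprel1, a prolyl hydroxylase of collagen, read 5.15, 0.247 and 14.6. Among metalloproteinases and their inhibitors 9 of 21 lay above both controls and 5 below. Mmp2, the gelatinase whose proenzyme MMP14 cuts, read 1.67, 1.01 and 9.34 FPKM, opposite in direction to Mmp14. Of 27 integrins, laminins and matrix ligands, 9 lay above both and 9 below both. Spp1, osteopontin, read 11.7, 47.3 and 1.53 FPKM and Tnc, tenascin C, 6.83, 5.97 and 18.7.

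Lysosomal genes as a list also did not share the low values of cathepsins Z and F. Of 31 kept, 12 lay above both controls and 7 below, beside 30.8% and 34.1% of all rows. Only Ctsz and Ctsf were beyond both by more than 1. Ctsl, cathepsin L, read 346, 421 and 550 FPKM, Gaa, the acid glucosidase, 79.0, 87.7 and 130, and Lamp1, a lysosomal membrane protein, 324, 390 and 388. Of 10 galectins and glycan binding genes kept, 3 lay above and 3 below both controls. Lgals1 read 294, 406 and 257 FPKM, close to the controls beside the gap of Lgals3, and Lgals9, which interferon induces, 59.1, 73.5 and 132. Mgat5, which builds the branched glycans that galectin 3 binds, read 26.8, 47.4 and 11.8.

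Clustered protocadherins are surface proteins of which each cell uses a few isoforms. They lay above both controls in 16 of 35 kept and below both in 8, beside 30.8% and 34.1% of all rows. Beyond 1 were 6 and 3 of these, beside 1.07% and 1.76% of all rows. Pcdhga10 read 1.68 FPKM in 7, 0.0210 in GFP-D and 19.7 in CIC-D, and Pcdhga1 3.84, 3.64 and 18.7. On the lower side Pcdhgb1 read 13.6, 26.1 and 0.260 FPKM, Pcdhgb8 8.27, 6.31 and 0.340 and Pcdhga6 4.11, 7.84 and 0.765. The gamma rows share their last exons and overlap 22 other rows each, so the split of reads among them is uncertain. The constant isoform Pcdhgc3 was level at 459, 437 and 473 FPKM. The beta gene Pcdhb9, which has a single coding exon, stood at 2.71, 3.24 and 11.7.

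Of 31 growth factor receptors, ligands and binding proteins kept, 13 lay below both controls and 7 above, beside 34.1% and 30.8% of all rows. By more than 1 these were 5 and 2, beside 1.76% and 1.07% of all rows. Besides Igfbp5, the IGF binding proteins Igfbp4 (17.1, 74.7 and 6.93 FPKM) and Igfbp7 (8.95, 4.14 and 0.881) were more than 1 below both, but Igfbp3 read 241, 83.5 and 423. Fgfr2, a receptor for FGF, read 8.53, 21.2 and 2.25, and Cntf, the astrocyte cytokine that supports neurons, 23.8, 21.8 and 7.34, with 4.12 in FUBP1-D. The EGF receptor ligand Areg read 0.697, 1.21 and 4.40 FPKM and Pdgfc 6.91, 1.12 and 18.3. Egfr itself, at 47.8, 75.7 and 47.0, was within 0.02 of the nearer control.

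In the BMP and TGF-beta list 10 of 26 lay above both controls and 10 below. Id1 and Id2, direct BMP targets, read 17.1, 16.9 and 49.6 FPKM and 31.8, 31.5 and 63.9, each with nearly equal controls, whereas Id3 lay between its controls at 61.2 against 110 and 36.5. The ligand Bmp6 read 1.97, 5.13 and 0.281 FPKM, and the receptor Bmpr2 35.7, 28.9 and 15.6. Among cyclin-dependent kinase inhibitors and p53 targets, 14 of 25 lay above both controls and 3 below, beside 30.8% and 34.1% of all rows. The median member lay 0.15 above 7 and 0.47 above GFP-D. Cdkn1a, which encodes p21, read 129, 69.4 and 264 FPKM, and Phlda3, a p53-induced brake on Akt, 47.8, 45.5 and 99.95. FUBP1-D had 38.0 and 29.4 of these. Cdkn2b, which encodes p15, read 113 in 7, 1.74 in GFP-D and 0.175 in CIC-D. It lay more than 1 below both (margin -1.22), though the controls themselves differed by 5.38. In proliferating cells it read 0.0523 FPKM in CIC against 59.2 in TRC and 13.2 in GFP.

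The proliferating cells hold the other CIC library, with controls of their own, TRC and GFP. There 434 rows lay more than 1 above both controls (3.63%) and 676 more than 1 below both (5.65%). Of the 128 genes above in CIC-D, 53 were also more than 1 above in proliferating CIC, which is 41.4% of the 128 and 12.2% of the 434. Of the 211 below, 101 were also more than 1 below, which is 47.9% of the 211 and 14.9% of the 676. By any margin 83 of the 128 and 187 of the 211 lay on the same side of both controls, and 16 and 7 on the opposite side. These counts are to be read beside the 31.4% of all rows above both and 39.9% below both by any margin in proliferating CIC. The CIC and CIC-D libraries share a name across states, and the labels do not say whether they share a culture or a hairpin, so an effect of CIC and one of a shared origin cannot be told apart.

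A set of 9 genes read under 1 FPKM in both CIC libraries and at least 5 in each of the 6 others, a rule chosen after the values were seen. They were Serpinh1, Ctsz, Mmp14, Mfsd10, 1810013D10Rik, Sel1l3, Eml2, Hdgfrp3 and Kcnk1. Lgals3 came close, at 1.20 FPKM in CIC and 1.55 in CIC-D against a lowest value of 47.4 elsewhere. The reverse pattern, at least 5 FPKM in both CIC libraries and under 2 in the others, held for 3 genes, Fam5c, Nov and Pcdhga10. A further 8 had at least 10 FPKM in CIC-D alone and under 5 in the other 7 libraries: Hsd11b1, Ctgf, Nfatc4, Abi3bp, Pcdhb9, Grik3, Hrc and Sema3b. Only 3 genes lay more than 1 beyond both controls in opposite directions in the 2 states. Among them was Srxn1, sulfiredoxin, which repairs oxidised peroxiredoxins and read 35.8, 54.9 and 117 FPKM in 7, GFP-D and CIC-D, but 7.84 in CIC against 35.7 and 43.8. The others were Igfbpl1 and Tmem171.

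**Figure D5:**
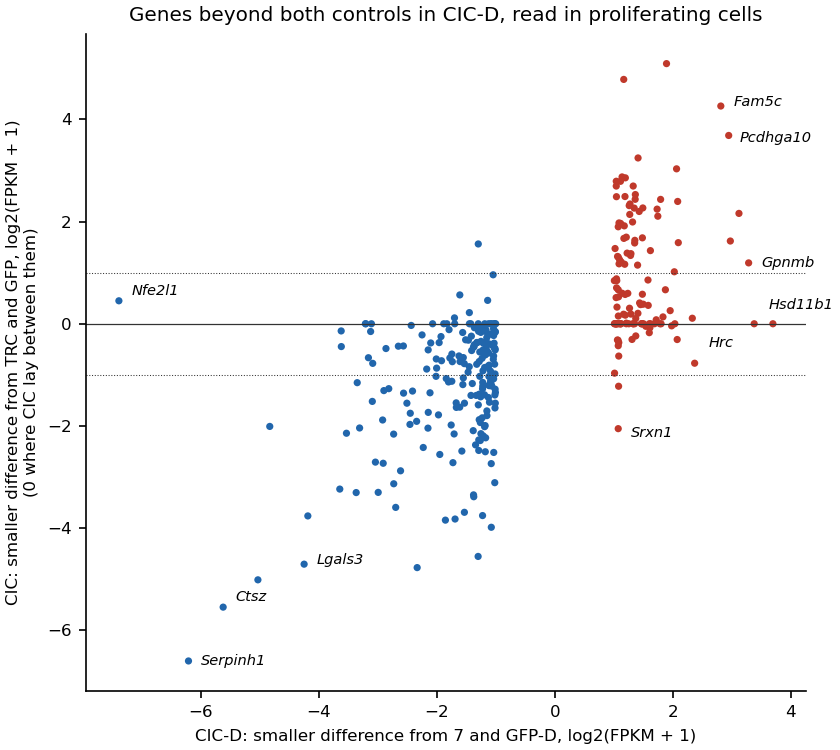
The 339 genes more than 1 beyond both controls in CIC-D. The horizontal axis is the smaller of the differences of CIC-D from 7 and GFP-D, the vertical axis that of CIC from TRC and GFP in proliferating cells, both in log2(FPKM + 1), with 0 where CIC lay between its controls and dotted lines at 1 and -1. Serpinh1, Ctsz and Lgals3 sit low on both axes, Hsd11b1 and Hrc at 0 on the vertical axis, and Srxn1 lies on opposite sides.

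Tested as a difference of CIC effects between the states, no row passed (limma, 0 of 11968 at an adjusted p of 0.05, 512 at an unadjusted p under 0.05, smallest adjusted p 0.345, for Nfe2l1). Among genes beyond both controls in CIC-D, those with the smallest p were Nfe2l1, Ugt1a6b, Srxn1 and Hrc, with differences of -8.44 (SE 0.65), 3.43 (SE 0.54), 3.58 (SE 0.55) and 3.47 (SE 0.63). The value for Nfe2l1 rests on its listed 0 in CIC-D, which can be a failed estimate. For Serpinh1 the difference was 0.49 (SE 0.45). Chst2, a sulphotransferase of glycans, read 32.4, 41.2 and 14.2 FPKM in 7, GFP-D and CIC-D, but 115 in CIC against 66.4 and 83.2.

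The FUBP1-targeted library FUBP1-D shares the controls 7 and GFP-D, so its values are given only side by side. Fubp1, the targeted gene, was only slightly lower there. It read 21.6 FPKM in FUBP1-D against 24.8 in 7 and 25.4 in GFP-D, differences of -0.19 and -0.23. Among genes furthest below in CIC-D it held 157 FPKM of Serpinh1, 112 of Ctsz, 88.9 of Mmp14 and 90.7 of Lgals3, within or above the range of the controls. S1pr3, at 3.72 FPKM, Pdk4, at 7.58, Ctsf, at 18.9, and Nfe2l1, at 109, were below both controls in FUBP1-D too. Tppp3, at 28.7, and Hdgfrp3, at 10.2, lay below both by smaller amounts in FUBP1-D. For Hsd11b1 it read 1.21 FPKM and for Hrc 1.19, as low as the controls. Timp4, at 58.1 FPKM, and Gjc3, at 41.1, were as high as in CIC-D or higher, and Cntf, at 4.12, was lower than in CIC-D. Ugt1a6b, at 28.4, and Ugt1a6a, at 10.4, were above both controls in FUBP1-D too, though under their CIC-D levels.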

How the data were processed

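RNA was measured by sequencing in 8 libraries, of which CIC-D, 7 and GFP-D were compared. The authors deposited 1 table of FPKM values per gene and library. The build was mm9, and Cufflinks 2.1.1, TopHat2 2.0.11, cutadapt and bcl2fastq 2.17 were among the tools, per the submitters' processing notes. The sources used here give no settings, annotation or strand use, so overlapping genes, such as those of the protocadherin and Ugt1a clusters, are uncertain. The table held 20793 rows and 20462 symbols. Gene positions are mm9, counted from 1. Fragment counts could not be recovered: the most frequent step ratio of low values held for 13.9% of 1174 rows between CIC-D and 7.

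FPKM values were used as deposited, as log2(FPKM + 1), which understates changes of low genes. A row was kept where 2 or more of the 8 libraries reached 1 FPKM (11968 rows, 11967 symbols). Tests used limma 3.58.1 in R 4.3.3 (6 group means, mean-variance trend, two-sided, Benjamini-Hochberg over 11968 rows, threshold 0.05, 2 residual degrees of freedom from the non-targeted pairs) and were tested on simulated data. Lists were described by counts without a set test. The genes named were the 14 furthest beyond both controls in each direction, the 8 furthest with at least 10 FPKM in all 3 libraries, Cic, Fubp1 and Kdm1a, up to 4 members of each list per direction, the rows limma called and those of smallest p between states. Other list members were named after their values were seen, and some genes the rule names are not reported here. The members and the 35 lists (876 genes) were chosen with earlier results of these data known. Alternatives were other pseudocounts, filters, scalings, margins and models and leaving out each control. Promoters are RefSeq entries on GRCm38.p6, of which only sequence was used.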

Additional observations from a re-analysis of the deposited data

How the results depend on the processing

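The 128 genes above both controls became 59 with a pseudocount of 5, 71 when at least 5 FPKM in 2 of the 3 libraries was asked for and 15 with a margin of 2, and the 211 below both became 69, 123 and 54. A pseudocount of 0.1 gave 426 below. With 1 control left out the counts ran from 331 to 526 above and from 476 to 591 below. The 2 limma calls became 0 with a pseudocount of 5, without the filter, without the trend and with the differentiating libraries only, and ranged from 0 to 0 when a non-targeted library was left out. They became 13 (2 higher, 11 lower) in the additive model of state and targeted gene, which takes CIC and CIC-D as replicates. Quantile normalization put 1 MHC gene below both controls in place of 0 and 2 respiratory chain genes in place of 1, and median of ratios scaling put 0 there. Of 121 named genes, 22 fell back under the margin with a pseudocount of 5 and 6 with quantile normalization (Gstm1, Col6a2, Stmn2, Bmp6, Jund and Twist1), and no direction reversed under the alternatives run. Other list counts also moved by over 1.5 times. With quantile normalization, members above both went from 3 to 9 for cell cycle and from 9 to 5 for splicing regulators, and members below both from 1 to 2 for the oligodendrocyte lineage and from 5 to 3 for mesenchyme. With median of ratios scaling, members above both went from 3 to 5 for CIC targets and for neural progenitor genes, and members below both from 5 to 3 for metalloproteinases, Notch and glutamate and GABA genes. Except where an alternative tests fewer rows or libraries, the cause was not tested.

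No paired analysis was possible because the labels carry no replicate numbers that join CIC-D to a control. With 1 targeted library, no spread between CIC-targeted cultures is known. Low FPKM values are coarse and their counts unknown.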

Other observations

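The counts of other gene groups are to be read beside the 30.8% of all rows above both controls and the 34.1% below both. Immediate early genes lay above both controls in 10 of 24 and below in 4, with Jund, a partner of Fos in AP-1, at 45.4 FPKM in 7, 43.5 in GFP-D and 92.4 in CIC-D. Glutamate and GABA genes lay above both in 10 of 23 and below in 5. Gria1, an AMPA receptor subunit, read 28.2, 91.8 and 6.24 FPKM. Glycolysis and hypoxia genes lay above both in 2 of 27 and below in 6. Adm, the vasoactive peptide adrenomedullin, read 111, 38.6 and 225, and Egln3, a prolyl hydroxylase that marks HIF for destruction, 16.8, 47.6 and 4.27. In the proliferating CIC library 21 of the 27 lay below both controls, beside 39.9% of all rows.

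Of 21 cholesterol synthesis genes 2 lay above and 6 below both controls, none by more than 1. Of 16 Notch pathway genes 2 lay above and 5 below, and Notch1 was level at 36.6, 40.8 and 39.6. Splicing regulators lay above in 9 of 34 and below in 8, imprinted genes above in 3 of 11 and below in 3, genes of FUBP1 and the LSD1 complex above in 4 of 14 and below in 5, and complement genes above in 1 of 5 and below in 0. Of 6 ependymal genes kept, 3 lay above and 2 below, with Foxj1, the factor of motile cilia, at 29.3, 34.0 and 47.6 FPKM.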
